A study of Drosophila melanogaster with 3 samples.

Results

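The regions described here are ChIP-seq peaks that lay between genes and near, but not at, a transcription start site (TSS). They were chosen by position alone from the authors' conservative peak list, counting each interval once with its strongest summit. A peak was a member if its summit lay outside every annotated gene body and more than 500 and at most 5000 bp from the nearest TSS. The list held 7804 peaks on arms 2L, 2R, 3L, 3R, 4 and X, and 863 of them (11.1%) were members. The other peaks were 3603 promoter peaks with a summit within 500 bp of a TSS, 2886 peaks in gene bodies outside promoters and 452 intergenic peaks over 5000 bp from any TSS.

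Chromatin immunoprecipitation followed by sequencing (ChIP-seq) recovers the DNA bound by a protein and maps it to the genome. Here the chromatin came from whole Drosophila melanogaster embryos aged 0 to 24 h, of the strain CG17361-GFP, a transgenic line whose CG17361 product carries a GFP tag. The chromatin was sonicated to fragments of 200 to 800 bp and precipitated with an antibody against GFP. There were 3 biological replicates of this 1 group and no other genotype or treatment, and the labels do not say whether the replicates came from separate collections of embryos, so their spread may be technical. The promoter that drives the fusion is not given in the labels. A sample holds whole embryos of all these ages, so binding in few cells and weak binding in many cannot be told apart.

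Sequence between fly genes often holds enhancers, silencers and insulators, the elements that set where and when a nearby gene is transcribed. Many developmental genes of the fly carry such elements within a few kilobases of their start. A peak in such sequence says that the tagged protein was recovered there, not that the nearest gene is its target.

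The sequences under the summits are shown first because the base composition reported next is read from them. Each run is the plus strand from 50 bp before to 50 bp after the summit, read from the RefSeq Release 6 genome (dm6 coordinates). Capitals mark uninterrupted runs of 8 or more A or T. The 5 runs of the first group are from members among the strongest found in every replicate, named by the gene of the nearest TSS. They lie at chrX:2124063-2124163 (ph-d), chr3L:6989261-6989361 (bin), chr3R:16222035-16222135 (lncRNA:CR45643), chr2L:2202358-2202458 (CG31668) and chr2L:1643384-1643484 (lncRNA:CR45695).
ph-d: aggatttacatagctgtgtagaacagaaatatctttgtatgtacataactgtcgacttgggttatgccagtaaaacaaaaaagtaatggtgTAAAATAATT
bin: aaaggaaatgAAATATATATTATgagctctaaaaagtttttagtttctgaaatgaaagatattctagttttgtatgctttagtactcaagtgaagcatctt
lncRNA:CR45643: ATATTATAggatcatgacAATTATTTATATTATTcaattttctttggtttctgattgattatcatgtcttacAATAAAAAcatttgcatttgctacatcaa
CG31668: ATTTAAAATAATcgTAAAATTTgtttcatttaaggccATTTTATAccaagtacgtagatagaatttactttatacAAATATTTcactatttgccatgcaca
lncRNA:CR45695: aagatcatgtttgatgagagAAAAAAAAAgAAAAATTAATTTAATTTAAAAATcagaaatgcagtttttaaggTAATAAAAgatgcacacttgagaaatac
The next 3 runs show the range of the members. The strongest member of chromosome 4, at chr4:424774-424874, held no such run. The members nearest CG11313, at chr3R:30734737-30734837, and nearest for, at chr2L:3657430-3657530, were in no replicate's own list, and their longest A/T runs were 16 and 6 bases.
lncRNA:CR43437: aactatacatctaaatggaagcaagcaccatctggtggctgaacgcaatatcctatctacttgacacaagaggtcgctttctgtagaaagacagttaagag
CG11313: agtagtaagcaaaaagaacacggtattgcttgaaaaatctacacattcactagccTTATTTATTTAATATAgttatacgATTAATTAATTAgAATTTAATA
for: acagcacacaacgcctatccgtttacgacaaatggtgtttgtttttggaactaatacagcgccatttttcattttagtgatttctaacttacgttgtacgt

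The centres of the members were poor in G and C. In the conservative list, mean GC within 50 bp of the summit was 31.2%, against 43.3% in windows of equal length centred 250 bp to each side. In members found by the same rule in each replicate's own list, the centres held 31.6%, 30.5% and 31.5% GC in replicates 1, 2 and 3, and the flanks 43.2%, 44.1% and 43.8%. The centre was the lower in every replicate, by differences of -11.6, -13.7 and -12.4 percentage points, or -12.6 ± 1.04 (SD, n = 3; exact two-sided permutation test by sign flips, p = 0.25, the smallest p that 3 replicates allow, here and below). All sequence between genes on the 6 arms held 40.4% GC, a level between those of the centre and the flanks. The 100 strongest members had the deeper contrast, 28.0% at the centre and 45.6% in the flanks. Members found in every replicate's list had 29.9% at the centre and those found in no replicate's list 31.3%.

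**Figure D1:**
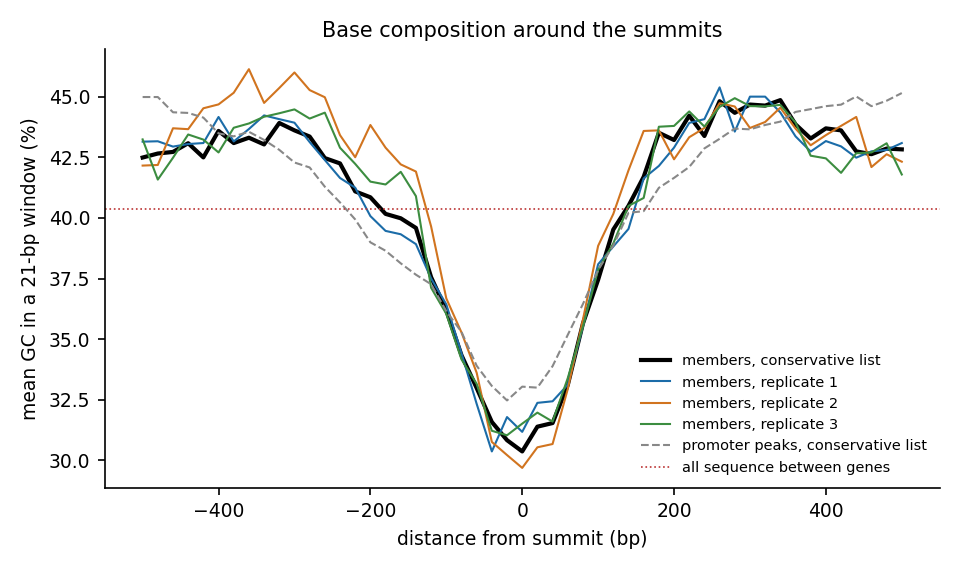
Mean GC percent in 21-bp windows against distance from the summit in bp, for members of the conservative list (black), members of each replicate's own list (colours) and promoter peaks of the conservative list (dashed). The curves of all 3 replicates fall from above the 40.4% of all sequence between genes (dotted) to about 30% at the summit.

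The low GC came with long A/T runs. An uninterrupted run of 10 or more A or T lay in 61.3% of the centres, within 50 bp of the summit, and in 29.1% of the flank windows. In the replicates' own lists the centre shares were 60.9%, 60.2% and 61.0%, and the flank shares 29.7%, 26.4% and 27.7%. Runs of 15 or more lay in 25.5% of the centres and 9.44% of the flanks. These shares were close to those of all 7804 peaks, where 58.6% of centres and 30.3% of flanks held a run of 10 or more. In each replicate the centre GC of members was within 1.03 percentage points of that of promoter peaks, with a mean difference of -0.54 ± 0.54 (SD, n = 3; exact permutation p = 0.5). In the conservative list promoter peaks had 33.1% at the centre, against the members' 31.2%.

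Of 30 known motifs searched on both strands of the same windows, 10 were more frequent at the centre than in the flanks in all 3 replicates, 10 were less frequent in all 3, and 10 went both ways. Each of the first 20 had an exact permutation p of 0.25. The TATA box word TATAAA lay in 27.7% of member centres and 12.5% of flanks, and in the replicates in 25.9% ± 0.750 against 10.7% ± 0.589 (SD, n = 3). TTTTTT, the core bound by Hunchback, lay in 30.9% of centres and 19.2% of flanks, and TAATTA, the homeodomain core, in 11.6% and 6.08%. AGATAA, the site of GATA factors, lay in 8.0% of centres and 5.85% of flanks. Among all 7804 peaks the centre shares were 26.1% for TATAAA, 28.5% for TTTTTT, 11.3% for TAATTA and 7.96% for AGATAA. These words are made mostly or wholly of A and T, they can overlap each other and the runs marked above, and a match is not evidence of a factor's binding.

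The motifs less frequent in all 3 replicates held G or C. So did some of those more frequent in all 3, namely AGATAA and the words of Cad, Dref, AP-1, M1BP and Bcd. The words of M1BP and Dref were rare, in 0.232% and 1.16% of member centres. That of Bcd lay in 2.67% of both centres and flanks in the conservative list. Whether base composition accounts for these groups was not tested. GAGAG, the word bound by Trl and Clamp, lay in 7.30% of member centres and 14.2% of flanks, and in the replicates in 8.11% ± 0.0980 against 15.1% ± 0.852 (SD, n = 3). GCCAT, the core of Polycomb response element binding protein Pho, lay in 12.6% of centres and 18.3% of flanks. CACACACA lay in 0.695% and 3.94%, and the E-box CAGCTG in 1.97% and 3.01%. The word of Zelda, CAGGTA, the activator of the early embryonic genome, lay in 1.62% of centres and 2.20% of flanks, but was the more frequent at the centre in 2 of the 3 replicates. GAGAG and the longer GAGAGAGA overlap by construction. All 7804 peaks held GAGAG in 8.35% of centres and 14.96% of flanks.

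The signal score is the authors' deposited peak signal, with no scale stated in the labels or files, and it was compared only within a list. Member signals ran from 4.74 to 1160, with a median of 205.5, against a median of 225.6 for promoter peaks, 210.0 for gene body peaks and 188.1 for far intergenic peaks. In the replicates' own lists the median member signal was 97.9, 77.8 and 104.4 and that of promoter peaks 111.6, 96.1 and 113.4. Members were the weaker in every replicate, by a mean difference of -13.6 ± 4.63 (SD, n = 3; exact permutation p = 0.25). They were also below gene body peaks, by -4.48 ± 0.492, and above far intergenic peaks, by 5.62 ± 2.35, in all 3 replicates (exact permutation p = 0.25 for each).

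The conservative list compares the ranks of replicates 1 and 3, while its intervals come from the alignments of all 3, so overlap with the replicates follows in part from its making. Of the 863 members, 275 (31.9%, 95% Wilson interval 28.8 to 35.05, counting error only) were found in every replicate, with the summit inside a peak of its thresholded list. The same held for 36.9% of all peaks and for 40.3% of promoter peaks. A further 222 members were in the lists of 2 replicates, 168 in that of 1 and 198 in none. Replicate 2, whose list was the shortest, held 41.4% of the members, against 61.5% for replicate 1 and 63.6% for replicate 3. Median signal was 136.8 for members in no replicate's list and 346.2 for members in all 3. Within bands of equal signal the classes were alike: above a signal of 281.1, 83.0% of members and 85.8% of promoter peaks were in every replicate. The list that compares replicates 2 and 3 held 436 members, and the list that compares replicates 1 and 2 held 580.

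Interval width went with both measures. Of the members, 440 (51.0%) had a width of exactly 610 bp, as did 52.3% of all peaks. These had a median signal of 153.1, and 6.59% of them were in every replicate's list. The other members had a median signal of 296.0, and 58.2% of them were in every replicate's list. Member widths ran from 152 to 1156 bp. Intervals also overlapped: 131 members (15.2%) overlapped a stronger peak, which for most was another member and for 25 a promoter peak. The 863 intervals covered 761 separate stretches, so neighbouring members do not always stand for separate places. The summits of 5 members lay in annotated transposable elements.

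The strongest member, with a signal of 1160 and rank 7 among all 7804 peaks, lay at chr2R:12957933-12958556. Its nearest TSS, also among coding genes, was that of CG13321, 4692 bp away, with the member downstream of it. The gap lies between CG13321 and Psc, which are convergent, so the 3' end of Psc and not its TSS faces this member. Psc encodes a subunit of Polycomb repressive complex PRC1. The strongest member had signals of 435, 325 and 410 in replicates 1, 2 and 3, and it ranked 7, 13 and 11 in their lists. The next, at chrX:2123824-2124492, had a signal of 1033 and lay 827 bp upstream of ph-d, in the gap to ph-p. Both of these genes encode polyhomeotic proteins, also subunits of PRC1. Its replicate signals were 398, 265 and 375, and it ranked 20, 81 and 32. Of the 21 Polycomb and trithorax group genes on the list used here, 1, ph-d, was the nearest-TSS gene of a member, against 3.50% of all genes, and Psc was the nearest coding gene of another, weaker member with a signal of 139.

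Other leading members were spread over the arms. The member at chr3L:6989004-6989632, 1311 bp upstream of bin, a fork head factor of the visceral mesoderm, had a signal of 1025 and replicate signals of 427, 254 and 358. At chr2R:22802688-22803240 a member lay downstream of the nearest TSS, that of CycB, which encodes a mitotic cyclin. Its signal was 939 and its replicate signals were 330, 272 and 339. Near lncRNA:CR45643 on 3R a member of 1156 bp had a signal of 968, with 388, 196 and 356 in the replicates. Replicate 2 gave the lowest of the 3 scores for each of these, and scores were not tested between lists.

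The member in the gap between slp1 and slp2, a pair of fork head genes that act in segmentation, lay 4332 bp upstream of slp2 and had a signal of 694, with 216, 204 and 280 in the replicates. A member nearest slp1, 2212 bp away, had 585, with 219, 127 and 238. The member nearest by, which encodes tensin of integrin adhesions, had a signal of 719, and scyl, an inhibitor of TOR growth signalling, one of 708. At lncRNA:CR45737 a member of signal 696 lay in the gap to sty, which encodes the receptor tyrosine kinase antagonist Sprouty. The remaining members among the 20 strongest found in every replicate were nearest CG33453 (signal 970), CG31668 (928), CG10479 (867), DNAlig3 (832), vers (824), lncRNA:CR45695 (817), CG43131 (799), CG43245 (736), lncRNA:CR45352 (704), lncRNA:CR42794 (684) and CG33798 (674). Of the 20, 5 had the TSS of a long noncoding RNA gene nearest, and 5 had a nearest TSS with a promoter summit of its own.

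**Figure D2:**
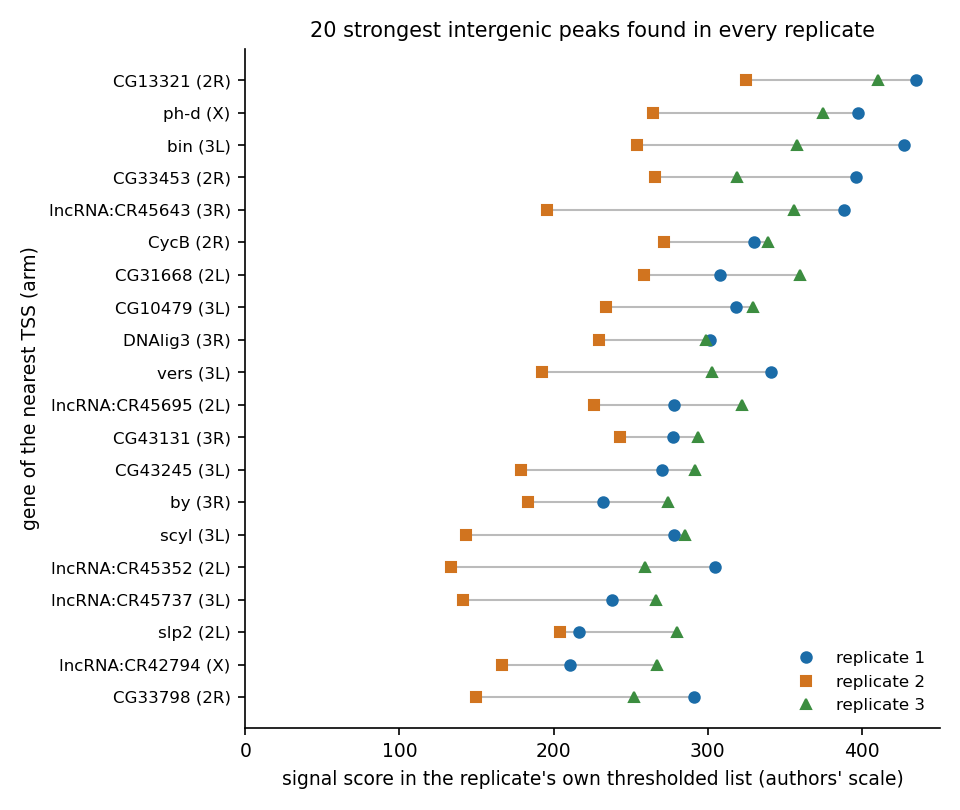
Signal score of the 20 strongest members found in every replicate, in each replicate's own thresholded list, with the gene of the nearest TSS and its arm. Within each replicate the members nearest CG13321, ph-d and bin stand among the highest, with scores of 435, 398 and 427 in replicate 1.

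Members were densest just outside the promoter limit. Eligible sequence, which is sequence between genes in the same range of distances, came to 16.4 Mb and held 52.7 members per Mb. The density was 82.1 per Mb above 500 and up to 1000 bp, 52.2 up to 2000 bp, 44.7 up to 3000 bp, 41.3 up to 4000 bp and 45.4 up to 5000 bp, each bin starting where the one before it ended. Beyond 5000 bp it was 22.5 per Mb. In the replicates' own lists the first bin held 57.0, 36.8 and 52.4 per Mb and the last bin up to 5000 bp 32.5, 24.1 and 32.5. The first was the higher in all 3, by 24.5, 12.7 and 19.9 per Mb, or 19.04 ± 5.98 (SD, n = 3; exact permutation p = 0.25). The difference in the conservative list was 36.8 per Mb, and 17.8 in the list without replicate 1. It was 25.7 when members that overlap a stronger peak were left out, a setting chosen after the overlaps were seen.

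**Figure D3:**
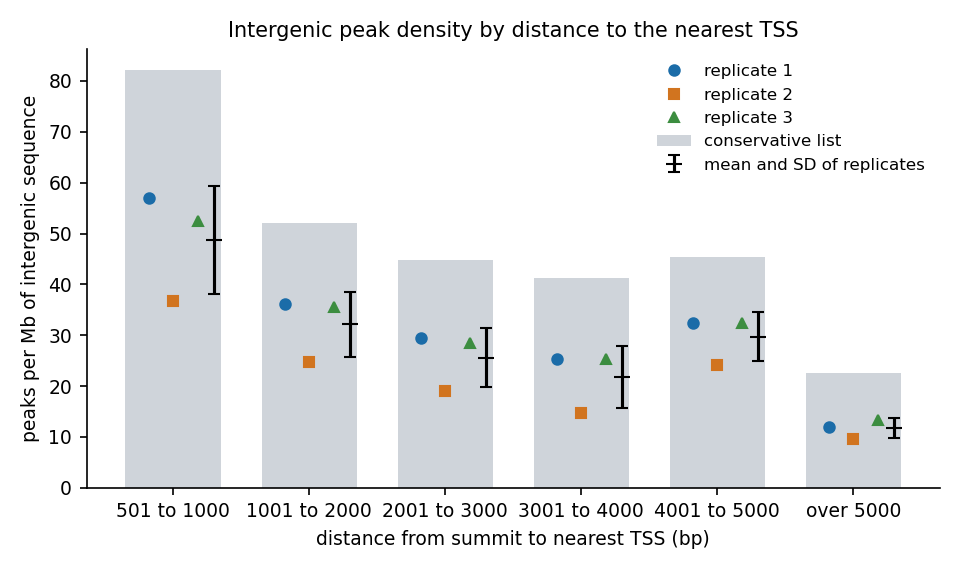
Intergenic peaks per Mb of intergenic sequence in bins of distance from the nearest TSS, in bp. Grey bars give the conservative list, coloured points each replicate's own list, and black marks the replicates' mean with SD. Density is highest in the bin that ends at 1000 bp, 82.1 per Mb in the conservative list, and lowest beyond 5000 bp.

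Single peaks on each side of the rule's limits are given as a description. The member nearest the lower limit lay 502 bp from the TSS of Syn and had a signal of 157.8, and a peak 500 bp from Phyhd1, just outside, had 149.4. At the upper limit a member 4996 bp from lncRNA:CR44863 had 160.7 and was in 1 replicate's list, and a peak 5015 bp from its nearest TSS had 363.7 and was in the lists of 3.

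Most members lay upstream of the nearest TSS, which is where most eligible sequence lies. Upstream members numbered 593 of 863 (68.7%), and 64.2% of eligible sequence was upstream. Densities were 56.5 per Mb upstream and 46.0 downstream. In the replicates the upstream share was 70.4%, 70.3% and 69.8%, above 64.2% in each. By the orientation of the genes on each side of the gap, members numbered 62.7 per Mb between divergent genes, 50.8 between tandem genes and 45.5 between convergent genes. The replicates gave 36.5 ± 8.66, 30.5 ± 6.03 and 27.0 ± 5.88 per Mb in that order, and the order was the same within each replicate.

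Arm 3L carried more than its share of members. It held 294 of the 863 (34.1%) with 21.4% of the eligible sequence and 20.4% of the promoter peaks. In the replicates 3L held 36.6%, 34.6% and 33.0% of members, or 34.7% ± 1.77 (SD, n = 3). Its density was 84.1 members per Mb against 44.2 on the other arms together. The replicate densities on 3L were 61.2, 38.3 and 53.5 per Mb, against 28.8, 19.7 and 29.5 elsewhere, so 3L was the higher in all 3, by 25.04 ± 6.91 per Mb (exact permutation p = 0.25). Density was 49.8 per Mb on 2L, 43.2 on 2R, 41.4 on 3R and 39.3 on X. The small chromosome 4, with 11 members, had 91.9 per Mb, and its replicates ranged from 16.7 to 50.1. Far intergenic peaks numbered 29.7 per Mb on 3L and 29.8 on 2L, above 23.8 on 3R, 23.9 on chromosome 4, 17.5 on X and 10.7 on 2R.

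**Figure D4:**
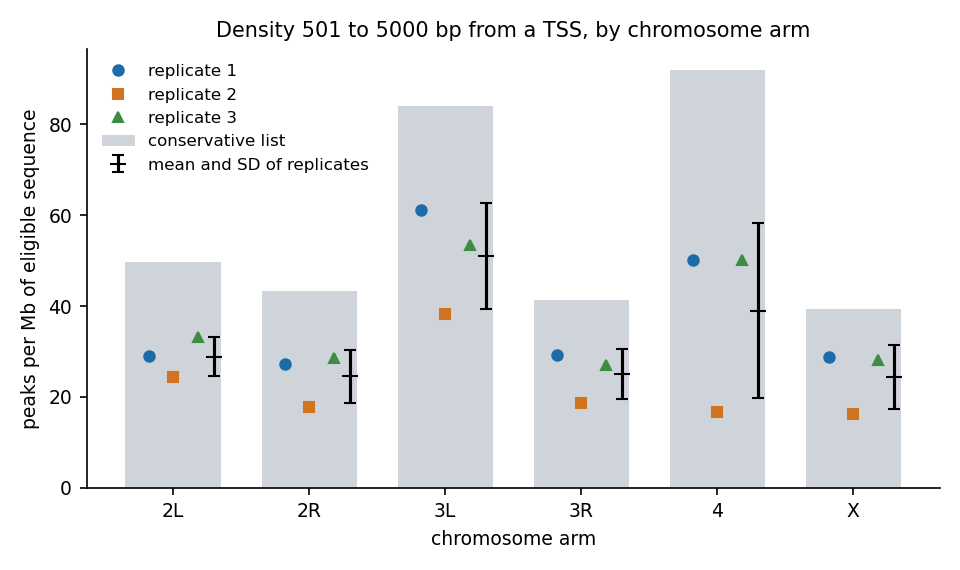
Members per Mb of eligible sequence on each chromosome arm. Grey bars give the conservative list, coloured points each replicate's own list, and black marks the replicates' mean with SD. In each replicate 3L, at 38.3 to 61.2 per Mb, stands above 2L, 2R, 3R and X, while chromosome 4 rests on 11 members of the conservative list.

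The excess on 3L was partly in a few places. Of the 10 windows of 100 kb with most members, 8 were on 3L, and they held 105 of its 294 members. With those 8 windows left out, 3L kept 189 members at 58.9 per Mb, and 45.5, 29.0 and 37.7 per Mb in the replicates. The windows were picked for their counts, so this value leans low. The richest window, chr3L:11300001-11400000, held 20 members, and 12, 7 and 11 in the replicates' lists. Its neighbour, chr3L:11400001-11500000, held 18, with 9, 7 and 12. The first lies between scyl and chrb, related inhibitors of TOR signalling, and the second contains chrb. The window chr3L:18200001-18300000 held 15 members, with 12, 8 and 9, between hid and grim, which encode activators of cell death. These 4 flanking genes were named after the windows were seen. Outside 3L the richest windows were on 2L, with 17 members from 14500001 to 14600000, and on 3R, with 13 from 21800001 to 21900000.

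Members also shared gaps. Of 6377 gaps between genes that held eligible sequence, 575 (9.02%) held a member. A single member was in 389 of them, a pair in 118 and 3 or more in 68. The fullest gap lay on 3L from 770463 to 803426, between tRNA:Ile-TAT-1-2 and CG13898, and held 6 members in 5 separate stretches, 3 of them in every replicate's list. A further 7 gaps held 5 members each, and the 4 with the highest summed signal lay between lncRNA:CR45937 and lncRNA:CR45936 on 3L, between lncRNA:CR44513 and lncRNA:CR42719 on 3L, between lncRNA:CR45247 and lncRNA:CR45246 on 3L, and between lncRNA:CR45355 and CG31816 on 2L. Their members fell into 4, 3, 3 and 4 separate stretches.

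The genes nearest the members were mainly protein-coding, as were those nearest eligible sequence. The nearest TSS was that of a coding gene for 557 members (64.5%) and of a noncoding RNA gene for 277 (32.1%). Coding genes are 76.8% of all genes, and 67.3% of eligible sequence was nearest to one. Noncoding RNA genes are 18.0% of all genes, but 28.3% of eligible sequence was nearest to one. Per Mb of that sequence there were 59.9 members, against 50.6 where a coding gene was nearest. In the replicates noncoding RNA genes were nearest to 30.4% ± 1.10 of members (SD, n = 3). In all, 635 of 18164 genes (3.50%) were the nearest-TSS gene of a member, and 563 of 13945 coding genes (4.04%) had the nearest coding TSS. Of the 1944 genes named as long noncoding RNAs, 179 (9.21%) were nearest to a member. These genes had 4.43 Mb of the eligible sequence nearest to them. Their density was 60.7 members per Mb, against 52.7 for all eligible sequence.

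Members lay near bound promoters more often than eligible sequence did. For 192 members (22.2%) the nearest TSS had a promoter summit of its own, whereas 9.96% of eligible sequence had such a TSS nearest. The replicates gave 23.2%, 13.2% and 16.8% of members, against 7.97%, 5.59% and 7.41% of eligible sequence. Of all genes, 22.3% were promoter-bound. The difference held up to 1000 bp (26.3% of members, 11.2% of sequence) and beyond 1000 bp (20.8% and 9.70%), and in each replicate at both distances. Gene body peaks had a bound nearest TSS in 30.9% and far intergenic peaks in 15.04%. Across the 192 pairs, the signals of the member and of the promoter peak gave a Spearman rho of 0.041, a description of 1 list, and the member was the stronger in 79.

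Genes of signalling pathways that pattern the embryo appeared by few members each. The lists named here were chosen with earlier results known, and each count is to be read against the 3.50% of all genes with a nearest member. Lists also differed in the eligible sequence nearest to their genes. Densities are to be read against the 52.7 members per Mb of all eligible sequence. In the Notch list 2 of 19 genes were nearest, at 88.7 per Mb. The member near E(spl)malpha-BFM, a Notch target of the Bearded family, had a signal of 503, with 188, 132 and 192 in the replicates. Members near mib1, the ubiquitin ligase that activates the ligand Delta, had 366 and 359, each in every replicate's list, though for the stronger it was the nearest coding gene only. The member with E(spl)m3-HLH, a repressor, as its nearest coding gene had 338 and was in 2 replicates. In the Wingless list 3 of 18 genes were nearest. A pair of members near fz, which encodes a receptor of the pathway, had 405 and 369. They shared 1 peak in replicate 2 and 1 in replicate 3, and replicate 1 alone separated them. Wnt4, a ligand, had a member of 277 in every replicate and another of 150.1 in none. The members near wg, the founding ligand, had 153 and 11.1 and were in none. With fz4, a related receptor, as nearest coding gene, a member of signal 264 was in every replicate and another of 147.6 in none.

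The Dpp list, of the fly BMP pathway, had 1 nearest gene of 16. That gene, Dad, encodes the inhibitory Smad and lay near members of 262 and 249, both in every replicate's list. The member with dpp, the ligand, as nearest coding gene had 176 and was in replicate 3 alone. In the EGF receptor list 3 of 14 genes were nearest: pnt, the ETS activator, with 421, aop, the ETS repressor, with 367, and kek1, a receptor inhibitor, with 241. Of these the aop member was in every replicate, with 124, 139 and 163. In the Toll and dorsoventral list 2 of 15 were nearest, at 79.8 per Mb. These were zen with 178 and ths with 175, and neither member was in every replicate. Counts this small give no order among the pathways.

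Among genes of the early axes and of tissues, muscle and heart genes gave the largest count, 7 of 26 (26.9%). Their 8 nearest members came to 137 per Mb of the sequence nearest to these genes, against 52.7 for all eligible sequence, and 4, 5 and 6 members were nearest in the replicates' own lists. Of the 8, 3 were in every replicate's list. The EGF receptor, Dpp and Wingless lists had higher densities, 289.7 per Mb, 287 per Mb and 175 per Mb, from 4, 2 and 6 members. So did the small nucleolar RNA list, with 182 per Mb from 6 members, and the mitochondrial ribosomal list, with 373 per Mb from 2 members. Of the 6, those at snoRNA:CD-24 overlapped each other, as did those at snoRNA:Me28S-C788b. The replicates' own lists held 3, 1 and 2 members nearest small nucleolar RNA genes. The members near the muscle actin genes Act57B and Act87E had signals of 357 and 280, and those near zfh1, a zinc finger factor of mesoderm, and Doc2, a T-box factor of the heart, had 338 and 301. Each of these 4 was in every replicate's list, though zfh1 was for that member the nearest coding gene and not the nearest TSS. Members near srp, a GATA factor, had 206 and 185, and those near how and lmd had 181 and 174, and none of these was in every replicate. Of maternal and gap genes 3 of 16 were nearest, slp2 and slp1 as above and bcd, the anterior morphogen, with 252. Of pair-rule and segment polarity genes 2 of 14 were nearest, and slp1 and wg stand in 2 lists. Of neural genes 3 of 29 were nearest, led by D, a Sox factor, with 388, and nub, a POU factor, had a member of 298 as nearest coding gene. The maternal and gap, pair-rule and neural lists had densities of 62.7, 53.0 and 62.7 per Mb, against 52.7 for all eligible sequence. No Hox gene of 8 was nearest by TSS, with 0.0177 Mb of eligible sequence in all, and Dfd alone was nearest among coding genes, with 150.

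Several lists had no nearest member in the conservative list, some of them with many bound promoters. Each had at most 0.0401 Mb of eligible sequence. The EGF receptor and Dpp lists, which had nearest members, held 0.0138 and 0.00696 Mb, so little sequence did not always go with no member. Of the 86 cytosolic ribosomal protein genes 72 were promoter-bound and none was the nearest-TSS gene of a member, with 0.0401 Mb of eligible sequence in all. As nearest coding gene, RpS3A had overlapping members of 244 and 133, both in every replicate's list. RpS23 had a member of 185, in replicate 1 alone. The 16 insulator protein genes, 11 of them promoter-bound, had 0.000368 Mb, and the 19 ZAD zinc finger genes, 11 bound, had 0.00378 Mb. The clock, heat shock and nuclear receptor lists, with 6 of 10, 8 of 20 and 9 of 22 genes promoter-bound, likewise had 0 nearest genes. So did the histone list, with 0 of 111 bound, and the spliceosomal RNA list, with 4 of 32 bound. These 5 lists had 0.00620 to 0.0324 Mb of eligible sequence each. In the replicates' own lists the nuclear receptor list had 1 nearest member in replicate 1 and 1 in replicate 3. The heat shock list had 1 in replicate 3. Of 73 mitochondrial ribosomal protein genes, 2 were nearest, mRpL21 with 268 and mRpS5 with 180.

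Chemoreceptor and cuticle genes showed the opposite order. None of 186 chemoreceptor genes was promoter-bound, and 8 (4.30%) were the nearest-TSS gene of 14 members, 6 of them in every replicate. Their density, 48.9 per Mb, was near the 52.7 of all eligible sequence. The leading ones lay near the gustatory receptor genes Gr89a (430), Gr93d (424) and Gr93a (321) and the ionotropic receptor gene Ir67b (280), with replicate signals at Gr89a of 132, 110 and 207. The Gr93 genes stand side by side in the richest window of 3R. Of 125 cuticle protein genes 1 was promoter-bound and 7 were nearest, at 51.9 per Mb, with Cpr76Ba at 421, Cpr67Fb at 407, Cpr51A at 351 and Cpr65Eb at 312. Of 295 tRNA genes 13 (4.41%) were nearest to 20 members, at 84.2 per Mb, led by tRNA:Gly-GCC-1-4 with 499, tRNA:Phe-GAA-1-7 with 404, tRNA:Ile-TAT-1-2 with 318 and tRNA:Ile-AAT-1-9 with 310. Of 257 small nucleolar RNA genes 4 were nearest, at 182 per Mb, and of 260 microRNA genes 1, at 19.8 per Mb.

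**Figure D5:**
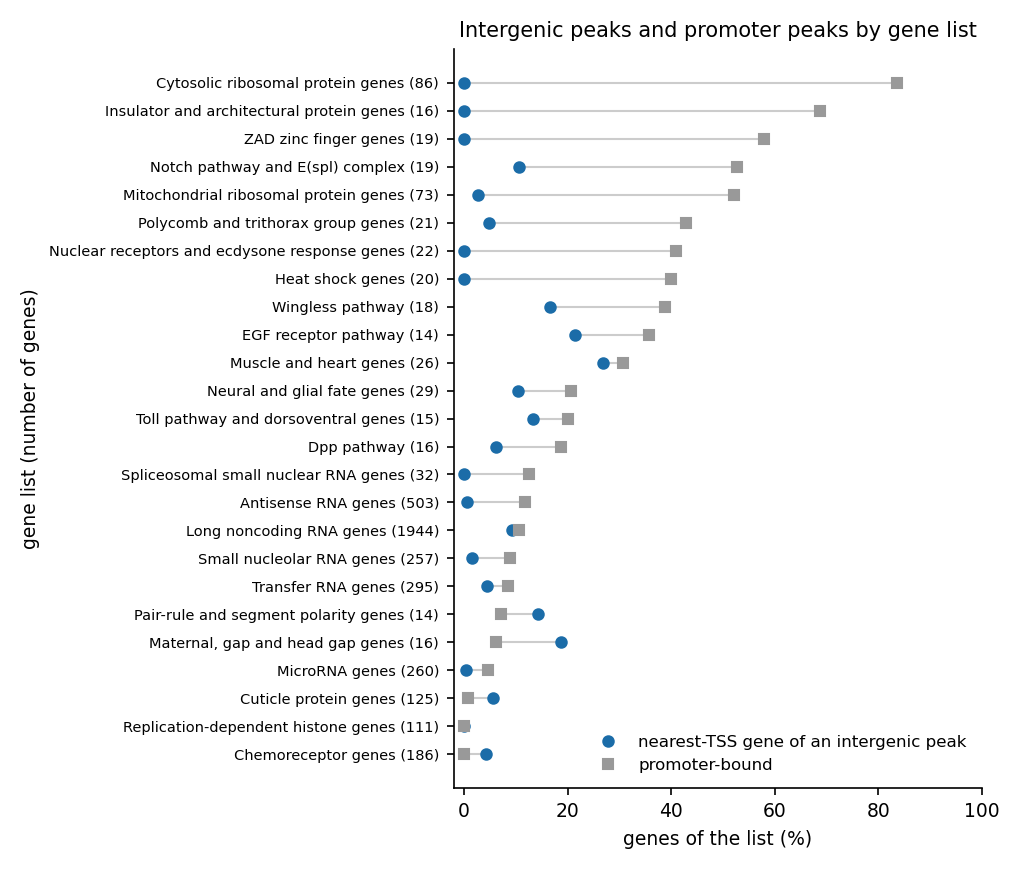
Percent of the genes in each list of 14 or more genes that were the nearest-TSS gene of a member (circles) or promoter-bound (squares), with the number of genes in parentheses. Cytosolic ribosomal protein genes stand at 83.7% promoter-bound and 0 nearest, and chemoreceptor genes at 0 promoter-bound and 4.30% nearest.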

How the data were processed

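ChIP-seq peak lists of 3 replicates of 1 group were used, 14 lists in all. Per the labels and file listings, reads were mapped to dm6. Neither aligner nor peak caller is given in the sources used here, and without read counts the depth is unknown. Peak signals are the authors' deposited scores, used within a list only. The authors' irreproducible discovery rate (IDR) is deposited as a −log10 value, at least 2 in each thresholded list. The 8536 lines of the conservative list were reduced to 1 peak per interval, the strongest line. Replicates behind each series-level list were found by identical intervals and signals. TSSs came from Ensembl release 115, without transposable elements, and sequence from RefSeq Release 6. Replicate values came from each replicate's own thresholded list, as mean ± SD and an exact sign-flip permutation test (Python 3.11.15, NumPy 2.4.6, SciPy 1.17.1). The classing was tested on simulated data. Members, motifs and gene lists were chosen with earlier results of these data known. Named genes were those of the 20 strongest members found in every replicate, the strongest member of each arm, up to 4 per gene list, the 5 fullest gaps and the members at the distance limits. Alternatives changed the list, the IDR limit, the distance limits, the annotation, the overlap and the window. The sequence of 1 strong member is not reported here.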

Additional observations from a re-analysis of the deposited data

How the results depend on the processing

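The list compared decided how many members there were. A setting that leaves out a replicate takes the list whose IDR compared the other pair. All such lists share intervals from all 3 alignments, and leaving out replicate 2 gives the conservative list itself. These lists gave 436 to 863 members, an IDR of 0.001 or less gave 467, and members found in every replicate numbered 275. The share in every replicate's list was 31.9% to 59.6% with a replicate left out, 55.5% at an IDR of 0.001 or less and 28.0% where 0.5 of the interval had to be covered. The upstream share kept above the 64.2% of eligible sequence under each alternative run. It was 68.7% to 70.6% with a replicate left out, 68.0% in the pooled list, 69.4% at an IDR of 0.001 or less, 70.2% among members found in every replicate, 69.1% over all deposited lines, 76.0% with protein-coding genes only, 64.7% with the lower limit at 1000 bp, 72.7% with the upper limit at 3000 bp and 68.2% without members overlapping a stronger peak, the last chosen after seeing the data. The eligible share was computed for the main rule only, and the density difference was not run with other distance limits. The share with a bound nearest TSS was 14.9% to 22.2% with a replicate left out, 15.2% at an IDR of 0.001 or less and 9.09% among peaks found in every replicate, where promoter peaks too were limited to those. The density difference and the GC difference kept their direction under each alternative run, at 10.6 to 41.7 per Mb and -14.6 to -10.5 percentage points. No paired analysis was possible because there is 1 group, so replicate numbers pair no samples across groups. The sign flips use differences within a replicate. Depth is unknown, so how far it limits the shorter list of replicate 2 cannot be said.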

Other observations

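Words of 6 bases were ranked by centre against flank on 2L, 2R and 4 (314 members) and read again on 3L, 3R and X (549 members). The 10 words with the largest excess on the first arms were made of A and T only. The leading word, AATATA, lay in 31.2% of centres and 10.7% of flanks there, and in 35.5% and 9.74% on the other arms. Words with G and C fell short at the centre, as with GCTGCC, which lay in 2.87% of centres and 8.92% of flanks on the first arms and in 2.91% and 9.84% on the others. Members of 1 list are not replicates, and these shares are a description.

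In the ranked lists, which also hold peaks that do not pass IDR, 852, 753 and 853 members lay in a peak of replicates 1, 2 and 3, and 742 in a peak of all 3. Ranked signals of members had a Spearman rho of 0.748 between replicates 1 and 3 (846 members). With replicate 2, rho was 0.633 against replicate 1 and 0.691 against replicate 3 (747 members each). The pair behind the conservative list had the highest rho. Members were selected by the ranks of that same pair, so the 3 values do not compare the replicates on equal terms.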
